A study of Mus musculus with 48 samples.

Results

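Histone genes were followed in C2C12 cells, an established mouse myoblast line, across differentiation and under cyclic stretching. Members were the symbols that start with Hist1h, Hist2h, Hist3h, Hist4h, H1f, H2af or H3f and that had a mean raw count of 10 or more over all 48 libraries. Of 47480 genes in the joined count tables, 91 symbols matched and 58 reached the limit. The 58 members comprised 43 genes of the histone clusters, 10 replacement variants and 5 pseudogenes or antisense transcripts. The mean count alone chose the members, and Hist2h2ac (10.3) and Hist1h2bh (11.44) were the lowest inside the limit, while Hist1h4a (9.54) and Hist1h2ah (9.48) were the highest below it. The other 33 matching symbols were not described further, and 6 of them had no count in any library.

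The study cultured C2C12 cells on collagen I coated flexible plates and stretched them in every direction by 16% at 1 Hz with a Flexcell FX-6000T device. Myoblasts were stretched 2 days after plating and differentiated cells after 4 days in medium with 2% horse serum. Each stage was stretched for 1, 3 or 6 h and set against non-stretched cells of the same time, which gave 12 groups of 4 libraries. All groups were the same unmodified line, no other agent was named, and the cells called differentiated are a culture in which cells that have not fused can remain. The titles gave codes, which were taken as experiments: 2 per stage with 2 libraries of each group from each. The exception was stretched differentiated cells at 1 h, which held 1 library of another code (replicate 4) in place of replicate 10. The study's methods give 3 experiments for differentiated cells, with 2 samples from 1 of them and 1 from each other one. Only that 1 h group matches this. The title of stretched myoblast replicate 9 at 1 h reads B231, and that library was taken as one of experiment B31. The study's methods call the libraries of 1 experiment separate samples and do not say whether they were separate cultures, so p-values measure the spread between these libraries.

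Histone proteins package DNA: H2A, H2B, H3 and H4 form the nucleosome core and H1 binds the linker DNA between nucleosomes. Most genes of the Hist clusters are replication-dependent: they are transcribed in S phase, when new DNA has to be packaged, and their mRNA ends in a conserved stem-loop in place of a poly(A) tail. Replacement variants such as H3.3 and H2A.Z are made from polyadenylated mRNA throughout the cell cycle and are also used in cells that have stopped dividing, as muscle cells do when they differentiate.

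Total counts ranged from 48447318 to 77080730 per library. Levels are CPM, counts scaled to library size, adjusted by TMM over all 48 libraries, and compare a gene between samples, not genes with each other. The stage labels held: all 12 muscle differentiation genes of a list were called higher in differentiated cells, with a log2 fold change of 9.14 ± 0.15 for Myog, which encodes the regulator myogenin, and 11.62 ± 0.14 for Mybph, which encodes a myosin-binding protein. Of 30 S phase and proliferation genes 29 were called lower and none higher, with -2.40 ± 0.08 for Mki67, a marker of cycling cells. In bulk RNA, fewer cells of a type and less RNA per cell cannot be told apart. The library preparation was a kit for mRNA, a kind that selects poly(A) tails, while the label of the molecule says nuclear RNA. The level of a cluster gene is that of the molecules this preparation caught.

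Sequence sets what can be counted for these genes. Members of the clusters shared a median of 59.3% of their 31-base words with transcripts of other genes in the GENCODE vM21 annotation (range 2.31 to 100%), against at most 18.8% for the replacement variants. Reads from such copies cannot be assigned with certainty, so the value of 1 copy is uncertain where copies are near-identical. The stem-loop was found in the annotated 3′ end of 31 of the 43 cluster members and in 1 of the 10 replacement variants (H2afx). Other protein-coding genes were searched over the whole transcript, not the 3′ end alone, and 20 of 21795 held it (0.0918%). Transcript models of cluster members ended within 100 bases of the stem-loop in 14 cases, ran further past it in 17, stopped at the stop codon in 8 and had a 3′ untranslated region without a stem-loop in 4. The element is shown for members on which the results turn, with the 16 bases of stem and loop in capitals and up to 5 flanking bases on each side (mm10, strand of the gene):
Hist1h2ap: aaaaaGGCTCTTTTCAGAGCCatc
Hist1h3g: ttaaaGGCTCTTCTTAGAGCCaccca
Hist1h1c: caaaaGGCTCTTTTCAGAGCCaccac
Hist2h2aa1: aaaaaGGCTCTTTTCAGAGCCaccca
Hist2h3c2: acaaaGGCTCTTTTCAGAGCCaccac
Hist1h4n: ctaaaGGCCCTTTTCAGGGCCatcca
Hist2h4: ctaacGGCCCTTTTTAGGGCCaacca
H2afx: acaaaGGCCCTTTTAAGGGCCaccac
Of the 32 members with the element, 17 had the letters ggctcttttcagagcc. The Hist1h2ap model (chr13:21833026-21833507, minus strand) ended 3 bases after the element. The Hist1h1c model (chr13:23738808-23740367, plus strand) ran 840 bases past it and held a poly(A) signal near its end, as did Hist2h4 (1257 bases past) and H2afx (822 bases past). Hist2h3c2 ran 377 bases past it with no such signal.

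Histone genes differed between the stages in both directions. In non-stretched cells, 49 of 58 members passed both limits used throughout for a call, an adjusted p under 0.05 together with an absolute log2 fold change no smaller than 0.58 (edgeR quasi-likelihood test, Benjamini-Hochberg over 16582 genes). By the adjusted p alone 56 passed, beside 89.4% of all genes. Of the 49 called, 36 were lower and 13 were higher in differentiated cells, whereas 52.0% of all genes tested were called, 24.9% lower and 27.1% higher. The median log2 fold change was -1.14 over the members and 0.01 over all genes. A member whose mean passed 10 through only 1 stage had to differ between the stages: 22 members averaged 10 or more counts in myoblasts only and 2 in differentiated cells only. Of the 34 that averaged 10 or more in both stages, 14 were called lower and 11 higher, with a median of 0.06. That limit itself leaves out genes that fell below it. So neither the excess of lower calls nor the negative median over all members is given as a result. Each stage came from its own experiments, so stage and experiment cannot be told apart.

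**Figure D1:**
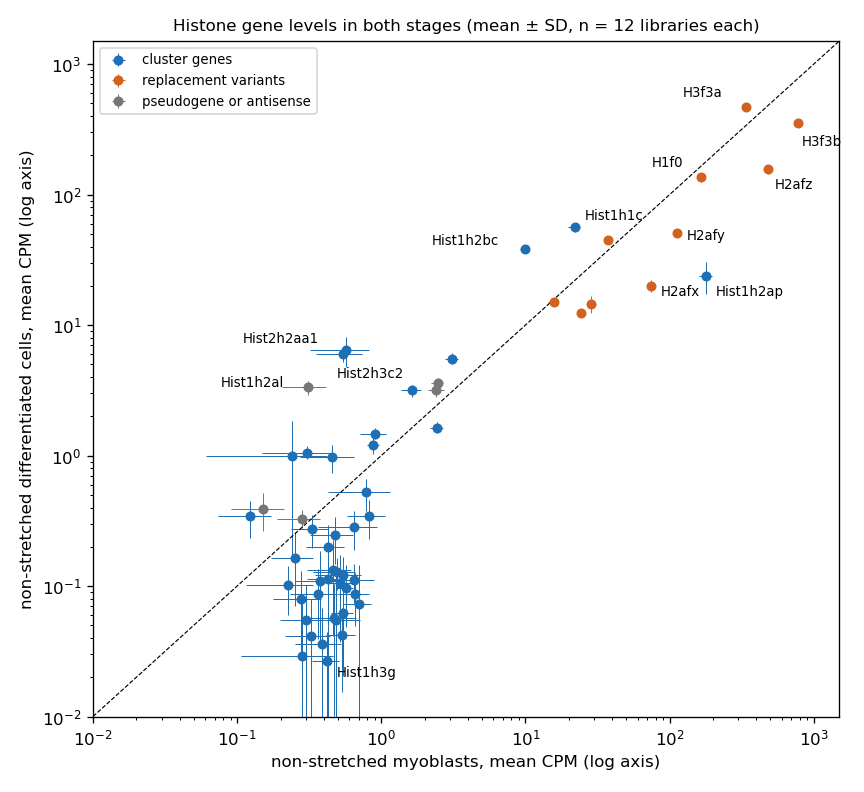
Mean level of each of the 58 histone genes in non-stretched myoblasts (x axis) and non-stretched differentiated cells (y axis), both in CPM on log axes, with SD bars over 12 libraries each, bars cut at the axis limit where the SD reaches 0, and a dashed line of equal level. Most cluster genes lie under 1 CPM and below the line, Hist1h2ap lies far below it, and Hist1h1c, Hist1h2bc, Hist2h2aa1 and Hist2h3c2 lie above it.

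The replacement variants held most of the histone reads in both stages. Their summed level was 2063 ± 56.7 CPM in myoblasts, as against 1275 ± 52.1 CPM in differentiated cells (mean ± SD, n = 12 each, as for all stage levels that follow), and cluster genes made up 10.2% and 10.5% of the members' summed CPM. Of the 10 variants 6 were called lower and none higher. The genes of histone H3.3, H3f3a and H3f3b, encode the same protein and moved apart. H3f3b fell from a lowest, median and highest level of 729, 782 and 830.1 CPM in myoblasts to 324, 350.1 and 395 CPM in differentiated cells (-1.17 ± 0.02, SE, adjusted p = 7.15e-28), and H3f3a lay at 330.2, 341 and 359 CPM and then at 456, 471 and 489.7 CPM (0.43 ± 0.02, adjusted p = 1.03e-19, under the fold limit). The stages did not overlap for either gene. Per kilobase of median transcript length, H3f3a was at 673 and H3f3b at 259 CPM over all libraries, with models of several lengths in the annotation.

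Among H2A variants, H2afx and H2afz showed the widest stage differences. H2afx, whose product is phosphorylated at DNA breaks and whose mRNA has both a stem-loop and a poly(A) form, fell from 74.6 ± 4.94 to 20.0 ± 2.06 CPM (-1.93 ± 0.04). H2afz, which encodes H2A.Z, fell from 481 ± 17.1 to 157 ± 12.02 CPM (-1.64 ± 0.03). The macroH2A genes H2afy (-1.18 ± 0.02) and H2afy2 (-1.02 ± 0.03) fell by less. H2afv, which encodes the second form of H2A.Z, was slightly higher (0.22 ± 0.02) and H2afj was at -0.08 ± 0.03, both past an adjusted p of 0.05 and under the fold limit. The linker variant H1fx fell from 28.7 ± 2.11 to 14.6 ± 2.07 CPM (-1.01 ± 0.05), while H1f0, which encodes H1.0, a linker histone known from cells that have stopped dividing, stood at 166 ± 7.21 and 136 ± 11.2 CPM (-0.32 ± 0.03, adjusted p = 1.20e-11, below the fold limit, with overlapping libraries).

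Of 43 cluster members 30 were called lower and 11 higher in differentiated cells, and of the 20 with 10 or more counts in both stages 8 were lower and 10 higher. In myoblasts 1 gene carried most of their CPM, and in differentiated cells Hist1h1c and Hist1h2bc had more reads than it. This gene, Hist1h2ap, an H2A gene, stood at a lowest, median and highest level of 142, 179.8 and 216 CPM in the 12 myoblast libraries and 13.5, 24.0 and 36.7 CPM in the 12 differentiated ones (-2.95 ± 0.10, adjusted p = 2.66e-20). The lowest myoblast library was far above the highest differentiated one. Its near-identical copy Hist1h2ao shared 93.8% of its 31-base words with other genes, Hist1h2ap first among them, and the counts of both added together gave 179 ± 19.2 and 24.0 ± 6.69 CPM. All cluster members summed to 235 ± 19.0 CPM in myoblasts, as against 152 ± 7.998 CPM in differentiated cells.

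The counts by class also follow from the limit on the mean count: 8 of 10 H3, 7 of 11 H2A, 4 of 8 H4 and 2 of 10 H2B cluster genes reached it through myoblasts only, so no pattern of classes is drawn from them. Of the H3 genes 9 of 10 were called lower, led by Hist1h3g (-3.88 ± 0.21) and Hist1h3c (-3.63 ± 0.22). Hist1h3d was nearest to 0 among those that fell (-0.996 ± 0.20), and Hist2h3c2 rose. Of the H4 genes 6 of 8 were called lower, among them Hist1h4j (-3.42 ± 0.29), Hist1h4b (-2.99 ± 0.34), Hist1h4n (-1.29 ± 0.18) and Hist1h4i (-0.60 ± 0.06). Of 11 H2A genes 8 were called lower, among them Hist1h2ag (-3.27 ± 0.28). Of the 43 cluster members 37 averaged under 1 CPM in myoblasts and 32 in differentiated cells. Hist1h3g averaged 0.418 ± 0.0900 CPM in myoblasts, 0.0268 ± 0.0179 CPM once differentiated, that is a mean of 25.3 and 2.46 raw counts over all libraries of the stages. The H2B genes divided into 4 called lower, led by Hist1h2bj (-2.54 ± 0.18), and 5 called higher. Of the cluster H1 genes, Hist1h1b (-2.18 ± 0.21), Hist1h1d (-1.21 ± 0.22) and Hist1h1e (-0.62 ± 0.20) were called lower and Hist1h1c higher. Hist1h1e, with overlapping libraries, lost its call on 3 h alone (-0.28, adjusted p = 0.231) and on 6 h alone (-0.54, 0.164). It also fell under the fold limit without experiment B27 (-0.57) or B25 (-0.56). Hist1h4i fell under it on 1 h alone (-0.56), on 6 h alone (-0.56) and without experiment B28 (-0.55). Hist1h3d lost its adjusted p on 3 h alone (0.05003).

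The cluster genes that rose included a linker gene and several H2B genes. Hist1h1c, which encodes the linker histone H1.2, rose from a lowest, median and highest level of 19.2, 22.3 and 25.1 CPM to 50.8, 55.7 and 65.2 CPM (1.34 ± 0.05, adjusted p = 2.38e-20). Hist1h2bc, an H2B gene, rose from 8.60, 10.1 and 10.9 to 35.1, 38.1 and 43.6 CPM (1.92 ± 0.04, adjusted p = 2.31e-25). The stages did not overlap for either. Smaller H2B genes also rose: Hist1h2bk (0.92 ± 0.08), Hist1h2bl (1.06 ± 0.16), Hist2h2bb (1.73 ± 0.20) and Hist2h2be (0.68 ± 0.09). The summed level of cluster H1 genes was 23.9 ± 2.24 CPM in myoblasts, as against 57.4 ± 4.38 CPM in differentiated cells, and that of cluster H2B genes 15.6 ± 1.10 and 47.0 ± 3.24 CPM, while that of cluster H2A genes was 186 ± 19.0 and 37.4 ± 6.35 CPM. The sum of cluster H3 genes was 4.72 ± 0.957 and 6.93 ± 0.824 CPM, opposite to the direction of most H3 genes and with overlapping libraries, and Hist2h3c2 made up most of the second value. That of cluster H4 genes was 5.09 ± 0.502 and 2.81 ± 0.250 CPM.

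The counts by cluster carry the same limit. Of 8 Hist2 members, which lie together on chromosome 3, 6 were called higher and 2 lower, and of the 5 with 10 or more counts in both stages 5 were higher. Of 33 cluster members named Hist1, on chromosome 13, 4 were called higher and 27 lower, and of the 14 with 10 or more counts in both stages 4 and 8. Hist3h2a on chromosome 11 rose (0.82 ± 0.06) and Hist4h4 on chromosome 6 fell (-2.47 ± 0.31). Trim17, which overlaps Hist3h2a, rose as well, from 0.490 ± 0.128 to 0.844 ± 0.211 CPM (0.76 ± 0.14). The part of Trim17 reads in the Hist3h2a value was not tested. The Hist2 genes that rose most were Hist2h2aa1 (0.571 ± 0.250 CPM in myoblasts, 6.48 ± 1.68 CPM once differentiated, 3.46 ± 0.19) and Hist2h3c2 (0.542 ± 0.189 CPM in myoblasts, 5.97 ± 0.714 CPM once differentiated, 3.41 ± 0.12). A transcript with no coding label, Gm20634 (chr3:96245554-96248509, plus strand), overlaps Hist2h2aa1 and rose as well, from 0.838 ± 0.255 to 20.8 ± 2.30 CPM (4.62 ± 0.09). Hist2h2aa1 shared 89.7% of its 31-base words with Gm20634, its near-identical copy Hist2h2aa2 100%, Hist2h3c2 64.2% and the chromosome 13 pseudogene Hist1h2al 79.9%, which rose by a log2 fold change of 3.38 ± 0.12. Hist2h3b (80.6% shared) and Hist2h2ac (43.3% shared) fell (-1.93 ± 0.35 and -1.16 ± 0.28). The part of Gm20634 reads in these values was not tested.

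Hist2h2aa2 had no count in 8 libraries and up to 197 in others, and the sum with its copy Hist2h2aa1 gave 0.814 ± 0.190 CPM in myoblasts against 7.48 ± 1.07 CPM after differentiation with no overlap. Of the other members without a coding label, the H3.3 pseudogenes H3f3c (0.53 ± 0.05), H3f3a-ps2 (0.36 ± 0.07) and H3f3a-ps1 (0.20 ± 0.15) were not called and share 91.3, 87.9 and 75.3% of their words with other genes. The antisense transcript H3f3aos was called higher (1.32 ± 0.20) at 0.151 ± 0.0599 and then 0.390 ± 0.126 CPM.

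**Figure D2:**
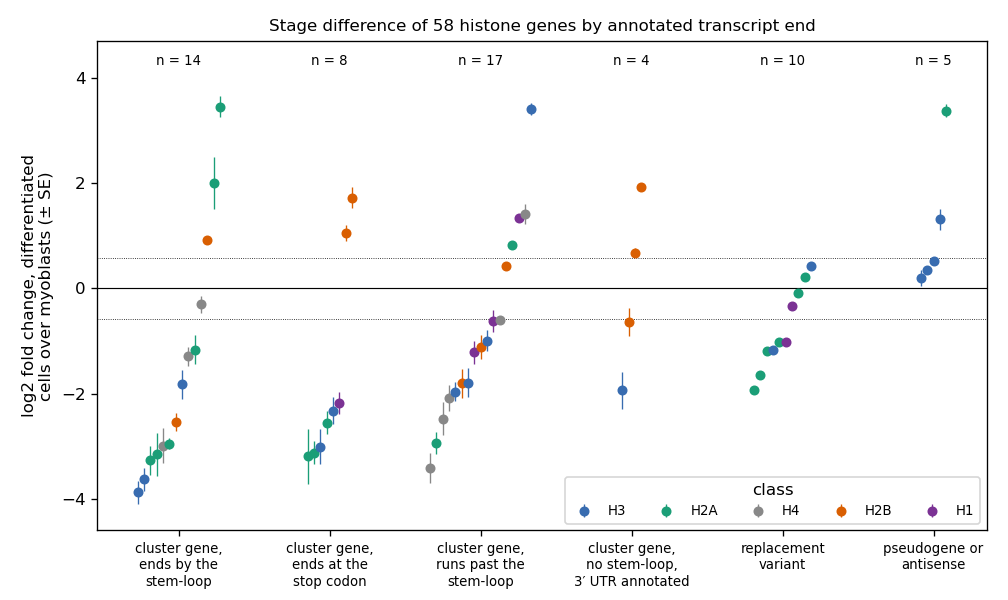
Log2 fold change of differentiated cells over myoblasts (y axis, ± SE from the edgeR fit on 24 non-stretched libraries) for each of the 58 members, grouped by where the annotated transcript ends (x axis) and coloured by class, with dotted lines at the fold limit of 0.58. Genes that rose and genes that fell occur in every group of cluster genes, and no replacement variant rose past the limit.

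Both directions occurred whatever the annotated end. Among cluster members whose model ends by the stem-loop 10 were called lower and 3 higher, among those that run past it 12 and 4, among those that stop at the stop codon 6 and 2, and among those with no stem-loop 2 and 2. These counts carry the limit on the mean count too. Summed by group, the models that end by the stem-loop went from 185 ± 19.0 to 35.7 ± 5.97 CPM, and those that run past it from 34.2 ± 2.71 to 73.0 ± 4.66 CPM. Hist1h2ap holds most of the first sum and Hist1h1c most of the second.

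Promoters of cluster members held the CCAAT box, the TATA box and the octamer in a larger share than promoters at large. RefSeq promoters (GRCm38.p6, 250 bases before to 50 after the start) were matched for 46 members, 37 of them cluster genes. On either strand, CCAAT was found in 31 of 37 (83.8%, against 37.4% of 32851 promoters), TATAAA in 17 (45.9% against 13.6%) and the octamer ATTTGCAT in 6 (16.2% against 1.74%). AAACACA, the letters of the H1 box, was found in 3 of 37 cluster members (8.11%, against 7.18% of all promoters), and in 3 of 5 H1 members when H1f0 and H1fx are included. Of 8 replacement members 5 held the CCAAT box (62.5%) and none the TATA box. Promoters of a gene that fell (Hist1h3g), the H1 gene that rose (Hist1h1c) and a Hist2 gene that rose under stretching (Hist2h2bb) are shown. They cover the 250 bases before the start on the plus strand, with CCAAT or its reverse complement, AAACACA and ATTTGCAT in capitals:
Hist1h3g chr13:23535168-23535417: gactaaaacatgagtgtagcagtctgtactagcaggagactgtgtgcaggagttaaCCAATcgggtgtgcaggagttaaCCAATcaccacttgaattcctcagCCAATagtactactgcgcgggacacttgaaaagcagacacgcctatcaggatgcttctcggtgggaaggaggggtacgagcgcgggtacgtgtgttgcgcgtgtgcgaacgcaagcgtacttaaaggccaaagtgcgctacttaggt
Hist1h1c chr13:23738557-23738806: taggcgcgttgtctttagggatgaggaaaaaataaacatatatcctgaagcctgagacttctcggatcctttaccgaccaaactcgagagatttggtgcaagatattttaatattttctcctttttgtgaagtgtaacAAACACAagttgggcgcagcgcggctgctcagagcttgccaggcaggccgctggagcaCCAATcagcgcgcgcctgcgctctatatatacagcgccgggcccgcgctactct
Hist2h2bb chr3:96269450-96269699: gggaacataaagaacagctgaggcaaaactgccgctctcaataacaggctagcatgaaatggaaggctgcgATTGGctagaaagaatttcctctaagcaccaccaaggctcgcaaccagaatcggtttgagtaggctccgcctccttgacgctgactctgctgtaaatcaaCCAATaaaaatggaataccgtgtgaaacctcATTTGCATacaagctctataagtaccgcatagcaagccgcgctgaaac
Hist1h3g holds 3 CCAAT matches, Hist1h1c 1 CCAAT and 1 AAACACA match, and Hist2h2bb 2 CCAAT matches, 1 of them on the minus strand, and the octamer. None of the capitals overlaps another motif searched.

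Many factors that make histone mRNA and load histones were lower in differentiated cells. Of 30 tested genes of histone mRNA transcription and processing 14 were called lower and 1 higher (Zcchc6), with a median of -0.56. Of all genes tested between the stages 24.9% were called lower and 27.1% higher, which is the background for the lists below too. Slbp, whose product binds the stem-loop, fell most among those named (-1.95 ± 0.03), beside Casp8ap2 (-1.16 ± 0.03) and Npat (-0.70 ± 0.02), which act at histone gene promoters. Lsm11 (-0.57 ± 0.02) and Lsm10 (0.38 ± 0.03), which encode parts of the U7 particle that cuts histone mRNA, did not pass the fold limit. These values do not stand for the cutting machinery as a whole. Of 28 chaperones and exchange factors 15 were called lower and 2 higher (Ubn1 and Ubn2, of the complex that loads H3.3), with a median of -0.82. The chaperones of newly made histones Chaf1a (-2.72 ± 0.04), Nasp (-2.17 ± 0.03) and Asf1b (-1.78 ± 0.05) were all lower. The S phase genes Ccne2 (-2.69 ± 0.05), Top2a (-2.43 ± 0.08), Rrm2 (-1.85 ± 0.02) and Pcna (-1.71 ± 0.03) lay in the same range. Of 5 genes known from undifferentiated reserve cells in C2C12 cultures 1 was called higher and 1 lower. The list medians stand beside 0.01 over all genes, and the part of cell division in the values of the histone genes was not tested.

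Stretching moved few histone genes past both limits. In myoblasts 1 of 57 tested members was called at 1 h (lower), 3 of 55 at 3 h (all higher) and 2 of 57 at 6 h (1 higher, 1 lower), against 1.25%, 1.71% and 2.17% of all genes tested (0.997% lower at 1 h, 0.459% higher at 3 h, 1.35% higher and 0.823% lower at 6 h). In differentiated cells 0 of 37, 0 of 35 and 4 of 36 members (3 higher, 1 lower) were called, against 0.27%, 1.63% and 2.04% (0.518% higher and 1.52% lower at 6 h). By the adjusted p alone, the counts were 3, 11 and 5 in myoblasts (background 5.92%, 31.9% and 27.2%) and 0, 5 and 12 in differentiated cells (background 0.663%, 22.2% and 22.3%). Where edgeR called none in differentiated cells, 3 members at 1 h and 10 at 3 h had an unadjusted p under 0.05. Of all genes tested, 1386 of 15538 and 5408 of 15513 did. DESeq2 called 0 members at both times. Between 21 and 23 members, all of low level in differentiated cells, were filtered out there.

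**Figure D3:**
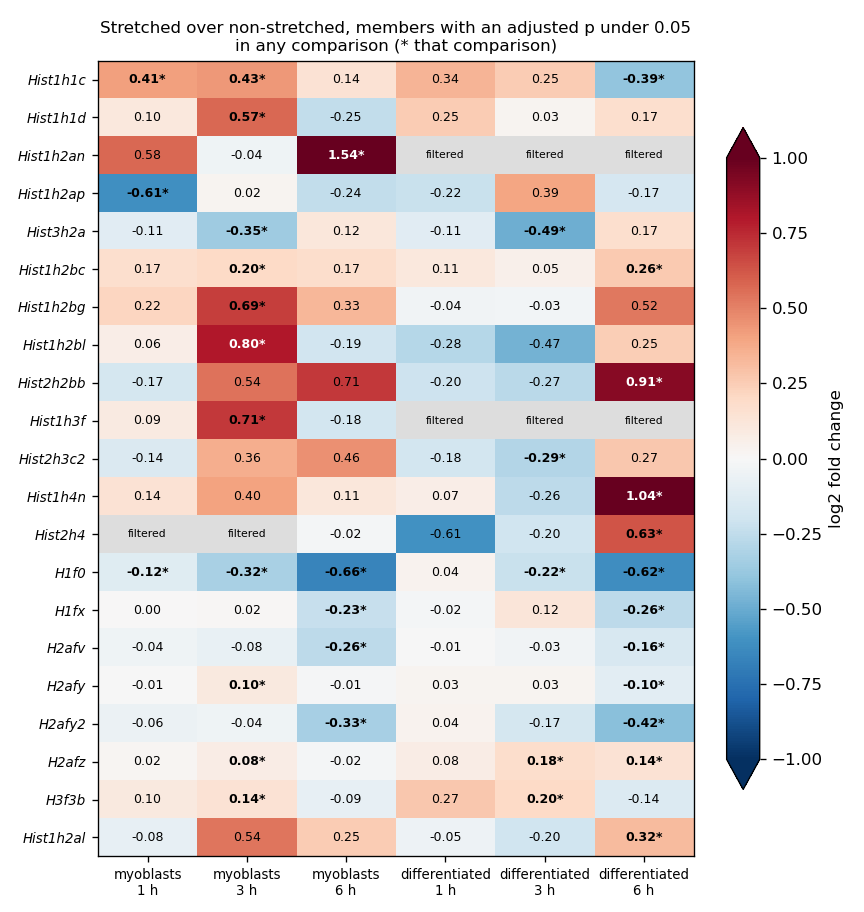
Log2 fold change of stretched over non-stretched cells for the 21 members with an adjusted p under 0.05 in any of the 6 comparisons (rows), by stage and time (columns), with an asterisk where that comparison passed and grey where a gene was filtered out. H1f0 goes from -0.12 to -0.66 in myoblasts and from 0.04 to -0.62 in differentiated cells, and Hist1h1c from 0.41 to 0.14 and from 0.34 to -0.39.

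H1f0, the gene of the linker histone H1.0, was lower after longer stretching in both stages. In myoblasts at 6 h, non-stretched replicates 7 to 10 stood at 159, 155, 159.9 and 157 CPM and stretched replicates at 87.9, 116, 79.7 and 111 CPM. The groups did not overlap, and among stretched libraries replicates 7 and 9, from different experiments, were lower than 8 and 10. The log2 fold change was -0.12 ± 0.03 at 1 h (adjusted p = 0.0413), -0.32 ± 0.03 at 3 h (1.34e-05) and -0.66 ± 0.09 at 6 h (6.40e-04), past the fold limit at 6 h only. Without stretched replicate 9 the 6 h value was -0.57 (adjusted p = 6.29e-04), and the 1 h value lost its adjusted p whichever single library was left out (0.0525 to 0.139). The effect at 6 h differed from that at 1 h by -0.53 ± 0.11 (interaction of time and stretching, adjusted p = 0.00237).

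In differentiated cells H1f0 followed the same course. Non-stretched replicates at 6 h stood at 123, 129, 132 and 125 CPM and stretched ones at 75.8, 87.4, 77.6 and 90.7 CPM, with no overlap. The log2 fold change was 0.04 ± 0.05 at 1 h (adjusted p = 0.933, edgeR), -0.22 ± 0.05 at 3 h (0.0101) and -0.62 ± 0.06 at 6 h (2.34e-04). Without stretched replicate 7 the last was -0.58, just under the limit, with an adjusted p of 0.00106. Within the 2 experiments the 6 h values were -0.62 and -0.61 in differentiated cells and -0.62 and -0.73 in myoblasts. The effect at 6 h differed from that at 1 h by -0.66 ± 0.08 (adjusted p = 3.97e-04), and a difference between the stages was not detected at 6 h (interaction 0.03 ± 0.12, adjusted p = 0.928, 95% interval -0.21 to 0.27).

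Hist1h1c, the gene of linker histone H1.2, went the opposite way early on. In myoblasts at 1 h, non-stretched libraries stood at 23.7, 25.1, 19.9 and 24.1 CPM and stretched ones at 31.1, 30.2, 32.1 and 29.9 CPM. Every stretched library was above every non-stretched one, as at 3 h, and the log2 fold change was 0.41 ± 0.06 at 1 h (adjusted p = 0.00284) and 0.43 ± 0.04 at 3 h (1.19e-05). At 6 h it was 0.14 ± 0.11 (0.371), with stretched replicates 7 and 9 at 17.4 and 18.5 CPM and 8 and 10 at 25.6 and 25.3 CPM. These are the same libraries that parted for H1f0.

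In differentiated cells Hist1h1c ended lower under stretching. At 6 h the non-stretched libraries stood at 54.0, 54.8, 56.5 and 63.0 CPM and the stretched ones at 38.4, 43.9, 41.8 and 50.1 CPM, again with no overlap. The log2 fold change was 0.34 ± 0.10 at 1 h (adjusted p = 0.2), 0.25 ± 0.08 at 3 h (0.0521) and -0.39 ± 0.08 at 6 h (0.00596), past the adjusted p at 6 h only and never past the fold limit. The effect at 6 h differed from that at 1 h by -0.73 ± 0.13 (adjusted p = 0.00369). At 6 h the effects of the stages differed by -0.54 ± 0.15 (adjusted p = 0.0403), which fell short of the fold limit and lost its adjusted p in 12 of 16 fits that leave out a library (up to 0.101), all but those without stretched myoblast replicate 7 or 9, non-stretched differentiated replicate 9 or stretched differentiated replicate 10.

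**Figure D4:**
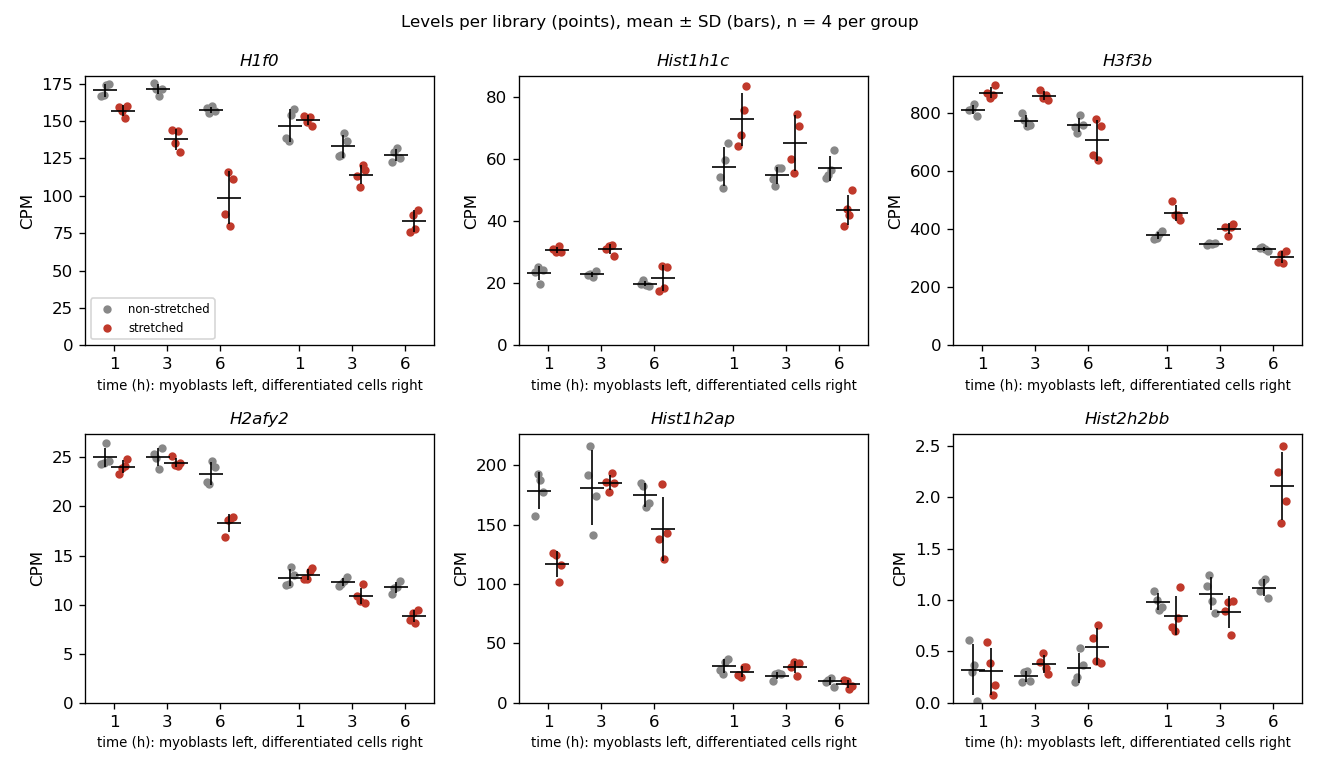
CPM of H1f0, Hist1h1c, H3f3b, H2afy2, Hist1h2ap and Hist2h2bb in every library (points, y axes from 0), with mean ± SD bars over 4 libraries, by time in hours (x axis), stage and stretching. H1f0 in stretched cells steps down from 1 to 6 h in both stages, Hist1h2ap is lower in stretched myoblasts at 1 h, and Hist2h2bb is higher in stretched differentiated cells at 6 h.

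The other replacement variants changed by smaller amounts. H2afy2, a macroH2A gene, was lower at 6 h in both stages: 22.5, 22.3, 24.6 and 24.0 CPM in non-stretched and 16.9, 18.7, 18.7 and 18.9 CPM in stretched myoblasts (-0.33 ± 0.05, adjusted p = 5.38e-04). In differentiated cells the values were 11.1, 11.7, 11.8 and 12.4 CPM and 8.49, 9.13, 8.11 and 9.49 CPM (-0.42 ± 0.06, adjusted p = 0.00195). Neither pair overlapped, and the 6 h effect differed from the 1 h effect in myoblasts (-0.27 ± 0.06, adjusted p = 0.00378) and in differentiated cells (-0.46 ± 0.09, 0.00565). H1fx (-0.23 ± 0.06 and -0.26 ± 0.06) and H2afv (-0.26 ± 0.05 and -0.16 ± 0.04) also passed the adjusted p at 6 h in both stages with lower values under stretching. H1fx lost it in myoblasts without non-stretched replicate 8 (0.0586) or stretched replicate 9 (0.0516), and in differentiated cells in the fit on all 24 libraries (0.0568). H2afy was at 0.10 ± 0.02 in myoblasts at 3 h and -0.10 ± 0.03 in differentiated cells at 6 h, and the latter kept its adjusted p in 1 of 8 fits that leave out a library, that without stretched replicate 7 (up to 0.103). None of the changes of H1fx, H2afv, H2afy or H2afy2 reached the fold limit.

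H3f3b, one of the H3.3 genes, was higher under stretching at 3 h in both stages. In myoblasts it stood at 799.6, 774, 753 and 759 CPM without and 878, 849.7, 860.0 and 845 CPM with stretching (0.14 ± 0.02, adjusted p = 4.61e-04). In differentiated cells it stood at 346, 353, 349.6 and 351 CPM and 405, 375, 407 and 418 CPM (0.20 ± 0.04, adjusted p = 0.00293). No stretched library overlapped the non-stretched ones at 3 h. At 1 h in differentiated cells the value was 0.27 ± 0.05 (adjusted p = 0.062) with stretched replicate 4, the library of the extra experiment, highest at 496 CPM, and at 6 h it was -0.14 ± 0.05 (0.0663). The 6 h and 1 h effects in differentiated cells differed by -0.41 ± 0.07 (adjusted p = 0.00318). H3f3a passed no limit in any of the 6 comparisons. H2afz was slightly higher at 3 h in myoblasts (0.08 ± 0.03) and at 3 and 6 h in differentiated cells (0.18 ± 0.06 and 0.14 ± 0.04). These lost their adjusted p in 6, 5 and 4 of 8 fits that leave out a library (up to 0.147, 0.104 and 0.0574). All 3 lost it in the fit on all 24 libraries of the stage (0.0642, 0.152 and 0.231). The replicate block took it past 0.05 in myoblasts at 3 h (0.0840) and differentiated cells at 6 h (0.0627). In myoblasts it was also lost without a filter on low counts (0.0594) and with the experiment as a term (0.0510).

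The cluster gene with most reads in myoblasts was lower under stretching at 1 h in myoblasts. Hist1h2ap stood at 157, 192, 187 and 177 CPM in non-stretched and 126, 124, 102 and 116 CPM in stretched libraries (-0.61 ± 0.07, adjusted p = 6.88e-04). The groups did not overlap, and the experiments gave -0.48 and -0.74, the latter with the library titled B231 (stretched replicate 9) taken as B31. Without non-stretched replicate 8 the value was -0.57 and without stretched replicate 9 it was -0.55, just under the fold limit with adjusted p of 0.00225 and 0.00184. Added to its copy Hist1h2ao, the means were 179 and 117 CPM. At 3 h Hist1h2ap was at 0.02 ± 0.09 (adjusted p = 0.868) and at 6 h at -0.24 ± 0.10 (0.0904). In differentiated cells it was at -0.22 ± 0.15, 0.39 ± 0.13 and -0.17 ± 0.16 at 1, 3 and 6 h, none past the adjusted p.

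Some cluster genes of few reads were higher in stretched myoblasts at 3 h. The 3 called were the H2B genes Hist1h2bl (0.80 ± 0.22, adjusted p = 0.0125) and Hist1h2bg (0.69 ± 0.20, 0.0177) and the H3 gene Hist1h3f (0.71 ± 0.19, 0.0138). Hist1h2bl stood at 0.284, 0.281, 0.351 and 0.344 CPM in non-stretched and 0.515, 0.517, 0.719 and 0.466 CPM in stretched libraries, which do not overlap, and it shares 88.6% of its words with other genes. Hist1h2bg lost its call without stretched replicate 8 (0.56, adjusted p = 0.0642), and in the fit on all 24 libraries of the stage Hist1h2bl and Hist1h3f lost theirs (adjusted p = 0.0624 and 0.0601). Hist1h1d (0.57 ± 0.19) and Hist1h2bc (0.20 ± 0.07) passed the adjusted p only, as did Hist3h2a with a lower value (-0.35 ± 0.11). Leaving out 1 library took the adjusted p past 0.05 in 5, 4 and 5 of 8 fits for these genes (up to 0.107, 0.0904 and 0.0729), stretched replicates 7, 8 and 9 among them for each, and Hist1h1d also lost it in DESeq2 (0.0536) and in the fit on 24 libraries (0.288). Over the 41 cluster members tested the median log2 fold change was 0.32, against -0.01 over all genes, with 7 past the adjusted p, a smaller share than the 31.9% of all genes. In the same comparison 15 of 30 S phase and proliferation genes passed the adjusted p with a higher value and 1 with a lower one (median 0.09, none past the fold limit, 31.9% of all genes past the adjusted p), and their part in the histone values was not tested. Of the muscle genes, only Myog (-0.82 ± 0.23) and Mybph (-0.82 ± 0.28) were called at this time, both lower, at mean raw counts of 104 and 34.6. The other muscle genes tested did not pass the adjusted p, with values from -0.59 (Myh3) to -0.01 (Cdkn1a). Among all genes tested, 1.71% were called in either direction and 0.459% were called higher.

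At 6 h in myoblasts the H2A gene Hist1h2an was called higher (1.54 ± 0.42, adjusted p = 0.0187) at 0.0777, 0.0705, 0.183 and 0.201 CPM without and 0.266, 0.376, 0.652 and 0.250 CPM with stretching. This is a gene of few reads that shares 89.0% of its words with other genes, and leaving out non-stretched replicate 7 or 8 or stretched replicate 9 took its adjusted p to 0.0571, 0.0548 and 0.057. The median over the 43 cluster members was 0.05, and 1 of them passed the adjusted p.

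In differentiated cells the stretch call with the lowest adjusted p among cluster genes was Hist2h2bb, an H2B gene of the Hist2 cluster (chr3:96269752-96270132, plus strand). At 6 h the non-stretched libraries stood at 1.09, 1.18, 1.20 and 1.02 CPM and the stretched ones at 2.25, 1.74, 2.49 and 1.96 CPM (0.91 ± 0.14, adjusted p = 0.00176). Every stretched library was above every non-stretched one, both experiments gave a higher value (0.82 and 1.00), and no single library changed the call. The value was -0.20 ± 0.17 at 1 h and -0.27 ± 0.17 at 3 h, and the 6 h effect exceeded that at 1 h by 1.11 ± 0.22 (adjusted p = 0.00535). In myoblasts at 6 h Hist2h2bb was at 0.71, not past the adjusted p. Its interaction of stage and stretching at 6 h was 0.19, also not past the adjusted p, so the rise is not given as particular to differentiated cells. The H4 genes Hist1h4n (1.04 ± 0.34, adjusted p = 0.0495) and Hist2h4 (0.63 ± 0.20, 0.0483) were called with less certainty. Hist1h4n stood at 0.357, 0.443, 0.253 and 0.430 CPM and 1.09, 0.570, 1.03 and 0.378 CPM with overlap, and lost its call in 7 of 8 fits that leave out a library, all but that without stretched replicate 10 (adjusted p up to 0.143). Hist2h4 lost its call in 6 of 8, all but those without non-stretched replicate 9 or stretched replicate 10 (up to 0.125). It also lost it in DESeq2 (0.0570), without a filter on low counts (0.0736), on all 24 libraries (0.168) and with the replicate block (0.0525). Hist1h4n also lost its call with RLE factors (0.0502), with the experiment as a term (0.0547) and with the replicate block (0.104).

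Other members passed the adjusted p alone in differentiated cells. At 6 h Hist1h2bc was higher (40.9, 42.6, 40.8 and 43.6 CPM against 55.7, 47.0, 51.8 and 47.4 CPM, 0.26 ± 0.05, adjusted p = 0.00669), as was the pseudogene Hist1h2al (0.32 ± 0.07), which lost its adjusted p in the fit on all 24 libraries (0.131). At 3 h Hist3h2a was lower (5.91, 5.39, 5.28 and 4.51 CPM against 3.47, 4.01, 3.79 and 3.68 CPM, -0.49 ± 0.09, adjusted p = 0.00357), and it shares 32.1% of its words with the overlapping gene Trim17. Hist2h3c2 was lower at 3 h (-0.29 ± 0.09, adjusted p = 0.0321), with overlapping libraries, and lost its adjusted p in 5 of 8 fits that leave out a library (up to 0.0913; it was kept when stretched replicate 8 or non-stretched replicates 9 and 10 were each dropped), and in the fit on all 24 libraries (0.0652). Over the cluster members tested the median was 0.25 at 6 h (21 tested) and -0.09 at 3 h (20 tested), while the median over all genes lay within 0.01 of 0 at both times.

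Lists of the machinery of histone mRNA were also followed under stretching. No gene of the transcription and processing list or of the chaperone list was called in any of the 6 stretch comparisons, where 0.27% to 2.17% of all genes were called, so 0 in lists of 30 and 28 genes is near the background. Slbp lay between -0.10 and 0.11 and Npat between -0.04 and 0.16. Nasp, a chaperone of H3 and H4 and of linker histones, was lower in stretched myoblasts at 6 h (-0.33 ± 0.04, adjusted p = 2.07e-04). By the adjusted p alone, 13 of 30 processing genes passed in myoblasts at 6 h (6 higher, 7 lower, 27.2% of all genes) and 11 in differentiated cells (7 higher, 4 lower, 22.3% of all genes). Hinfp, which encodes an activator of H4 genes, showed the only difference in these lists between the 6 h and 1 h effects past both limits (0.74 ± 0.09, adjusted p = 3.97e-04, in differentiated cells).

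No member passed both limits in a direct test of how the stages differed in their response. In the interaction of stage and stretching edgeR called 0 of 58 members at 1, 3 and 6 h, where 0.0%, 0.252% and 0.64% of all genes were called, and DESeq2 called 0 at each time. By the adjusted p alone the count was 0, 0 and 1 (background 0.0%, 1.79% and 5.18%), the last being Hist1h1c at 6 h. At an unadjusted p under 0.05 there were 5, 7 and 4 members, beside 705 of 16299, 2189 of 16252 and 3134 of 16254 genes tested. The effects of 6 h and 1 h were also compared within each stage, a comparison chosen after the values were seen. In myoblasts 0 of 58 members were called (background 2.89%), and DESeq2 called 1. There 2 members passed the adjusted p alone (background 18.1%), and 8 had an unadjusted p under 0.05, beside 4640 of 15455 genes. In differentiated cells 3 of 40 members were called (1 higher, 2 lower, background 2.17%, 1.07% higher and 1.1% lower). By the adjusted p alone it was 5 of 40 (background 8.69%).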

How the data were processed

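RNA-seq libraries of C2C12 cells were deposited as 2 tables of gene counts, 1 per stage, which the authors made by aligning reads to mm10 with STAR and quantifying them with Salmon. The deposited counts are whole numbers per gene, not normalized, in which Salmon estimates were rounded. The tables were joined by gene. Reads of near-identical copies cannot be assigned with certainty, which affects the cluster genes most. Total counts ranged from 48447318 to 77080730 per library, and in genes under 1 CPM the counting error is large. Levels are CPM with TMM factors over all 48 libraries.

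Tests were edgeR 4.0.16 quasi-likelihood tests (R 4.3.3; TMM, filterByExpr, two-sided) with Benjamini-Hochberg adjustment over all genes tested. A gene was called at an adjusted p under 0.05 and an absolute log2 fold change of at least 0.58. Each stretch comparison was fitted on its own 8 libraries, the stage comparison on 24 non-stretched libraries and the interactions of stage or time with stretching on 16. The SE is the absolute log2 fold change divided by the square root of F. The scripts were tested on simulated data. Alternatives were DESeq2 1.42.0, RLE factors, other filters, the experiment or replicate number as a term, other sets of libraries and each library left out. Named genes were every member past an adjusted p of 0.05 under stretching, in each class the 2 highest in CPM and the 2 with the widest stage difference, the 2 on each side of the count limit, and a fixed set from the other lists. Gm20634, Trim17, Zcchc6, Ubn1, Ubn2 and the other genes outside this rule were named after their values were seen. The members and lists were chosen with earlier results of these data known. The comparison of 6 h with 1 h and the sums of near-identical copies were chosen after seeing the data. Stem-loops were searched in GENCODE vM21 transcripts (mm10), and promoters were taken from RefSeq (GRCm38.p6).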

Additional observations from a re-analysis of the deposited data

Results flagged for a closer look

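By the adjusted p alone, the effect of stretching differed by time or stage for 5 members. Between times it passed for 2 of 58 members in myoblasts (18.1% of all genes) and 5 of 40 in differentiated cells (8.69%). Between stages at 6 h it passed for 1 of 58 (5.18%). The effect at 6 h minus that at 1 h was -0.53 for H1f0 and -0.27 for H2afy2 in myoblasts (log2 scale, edgeR interaction). In differentiated cells it was -0.66 for H1f0, -0.46 for H2afy2, -0.41 for H3f3b, -0.73 for Hist1h1c and 1.11 for Hist2h2bb. Between the stages, the 6 h effect differed by -0.54 for Hist1h1c, which lost its adjusted p in 12 of 16 fits that leave out a library.

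Of 72 groups of 4 libraries checked, 4 held a library far from the other 3 by Dixon's criterion, and chance alone marks about 1 in 20 groups. Hist1h2bc was at 8.60 CPM in non-stretched myoblasts of 3 h, replicate 8. H1fx was at 26.8 CPM in stretched myoblasts of 6 h, replicate 8, and H2afy2 at 16.9 CPM in replicate 7 of the same group. H2afy was at 49.9 CPM in non-stretched differentiated cells of 6 h, replicate 7.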

How the results depend on the processing

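No result changed direction under any alternative run. With the adjusted p alone, members past the limit numbered 3, 11 and 5 in stretched myoblasts at 1, 3 and 6 h, 5 and 12 in differentiated cells at 3 and 6 h, 1 in the stage interaction at 6 h, and 2 and 5 in the comparison of 6 h with 1 h in myoblasts and differentiated cells. Without a filter on low counts there were 5 calls in myoblasts at 3 h, 2 in differentiated cells at 3 h and 1 in the stage interaction at 6 h. DESeq2 called 1 in myoblasts at 6 h and 1 in the myoblast comparison of 6 h with 1 h, and a minimum of 10 counts in every library left 1 in myoblasts at 6 h. The causes were not tested. Leaving out 1 library gave 0 to 2, 2 to 7 and 0 to 2 calls in myoblasts at 1, 3 and 6 h, 0 to 0, 0 to 1 and 1 to 4 in differentiated cells, 0 to 0, 0 to 1 and 0 to 1 in the stage interactions, and 0 to 1 and 3 to 4 in the comparison of times. Leaving out 1 experiment gave 47 to 48 calls between stages. Of the values of single genes under stretching, 441 kept their side of the limit and 97 lost it, and of those between stages 398 kept it and 9 lost it.

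Same-numbered libraries were at most weakly correlated: 23 correlations ran from -0.04 to 0.15, most of them above 0, and 6 exceeded 0.1. A weak pairing by replicate number is not excluded. With the replicate number as a block there were 5 calls in myoblasts at 3 h, 1 and 2 in differentiated cells at 3 and 6 h, and 1 in the myoblast comparison of 6 h with 1 h. The block left the counts at 1 and 2 in myoblasts at 1 and 6 h, 0 in differentiated cells at 1 h and in the stage interactions, 49 between stages and 3 in the differentiated comparison of times.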
